A study of Mus musculus with 3 samples.

Results

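Promoters crowded with DNase footprints in natural killer cells were taken as a set of 152 protein-coding promoters, out of 21911 in the annotation and 10334 with a peak in every library. A promoter was the 5′ start site of a gene with 500 bp on each side, 1001 bp in all, and a footprint was counted where at least 1 bp of it lay in that window. The members were chosen by their footprint counts, as the promoters in the top 5% of counts among promoters with a peak, in all 3 libraries. The comparison set, called the other open promoters here, is the 10182 that had a peak in all 3 libraries and were not chosen. The cells were primary natural killer cells of male B6CASTF1/J mice, a first-generation cross of C57BL/6 and CAST, adults aged 2 months. There was 1 group of 3 libraries with no treatment and no control cells. All 3 libraries carry 1 donor label, so what is printed as spread may be only technical, and no sort or gate is named.

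DNase I cuts accessible DNA, and a bound protein shields the few bases under it, so a footprint is a short stretch with few cuts inside an accessible site. The start sites of widely expressed genes often lie in CpG islands, where general factors such as SP1, NRF1, NF-Y, YY1 and ETS proteins bind close together. Many such islands carry genes that run in opposite directions from a shared promoter. Natural killer cells are innate lymphocytes that kill infected or transformed cells, and the genes of their receptors and granule proteins often start outside CpG islands.

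The stretches below come from 4 of the 12 members with the highest mean percentile of the count and show footprints upstream of a start. They were picked after their values were seen, for a large share of bases in shared footprints. In stretches of Lnpep and Akt1s1 taken by the same steps, 6 and 22 of 150 bases were in such footprints. Each is free of annotated exons, read 5′ to 3′ on the strand of the gene, and capitals mark bases inside a footprint of all 3 libraries. The letters are those of the RefSeq copy of GRCm38 (mm10), not of the CAST alleles that these cells also carry.
Cdca2, chr14:67715842-67715936, minus strand: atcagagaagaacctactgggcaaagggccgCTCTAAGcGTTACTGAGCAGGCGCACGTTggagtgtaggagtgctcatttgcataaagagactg
Cic, chr7:25267484-25267633, plus strand: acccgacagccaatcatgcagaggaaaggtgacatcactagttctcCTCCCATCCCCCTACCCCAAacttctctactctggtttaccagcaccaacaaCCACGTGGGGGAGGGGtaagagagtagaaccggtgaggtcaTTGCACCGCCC
Spata5, chr3:37419597-37419746, plus strand: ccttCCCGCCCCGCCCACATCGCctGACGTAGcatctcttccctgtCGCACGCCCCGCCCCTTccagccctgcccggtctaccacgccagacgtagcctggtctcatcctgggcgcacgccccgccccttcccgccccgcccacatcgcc
Kdm3a, chr6:71633033-71633182, minus strand: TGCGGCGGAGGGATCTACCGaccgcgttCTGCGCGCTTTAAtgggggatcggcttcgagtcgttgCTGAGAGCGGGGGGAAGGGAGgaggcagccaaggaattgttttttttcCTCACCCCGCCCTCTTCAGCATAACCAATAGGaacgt
In Kdm3a, which encodes a histone demethylase, 86 of 150 bases (57.3%) lay in footprints of all 3 libraries. These bases formed 4 stretches between 43 and 192 bases upstream of the start. The stretch nearest the start held a GC box at position 120, a CCAAT box at position 138 and 7 of the 8 letters of a CACCC box, and the other stretches held no whole match to a motif searched. In Spata5, which encodes an ATPase, the GC box letters GGGCGG occurred 6 times on either strand. At positions 6, 11 and 55 of the printed stretch they were in capitals, and at positions 122, 132 and 137 none of their letters was. In Cic, which encodes the repressor Capicua, 47 of 150 bases lay in shared footprints, with an E-box (CACGTG) at position 100 and a GC box at position 145 wholly in capitals and a CCAAT box at position 10 outside them. Cdca2, which encodes a protein of mitotic chromatin, had 28 of 95 bases in capitals, and no whole match to the 25 motifs searched lay in them.

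Shorter examples show the motifs discussed further down. Each line is part of a footprint that all 3 libraries share, with the motif in capitals, from an exon-free place in a member with many footprints of that motif.
Dazap2, GC box, chr15:100615117-100615131, plus strand: tttaGGGCGGggccg
Mon1b, ETS motif, chr8:113635765-113635784, plus strand: gaaaCCGGAAGtgtcccggg
Ctbp1, NRF1 motif, chr5:33274604-33274621, minus strand: gtgatGCGCATGCGCgaa
Oxsr1, cyclic AMP response element, chr9:119322429-119322450, minus strand: gcgtggTGACGTCAgcgcgctg
Fiz1, YY1 motif, chr7:5014825-5014849, minus strand: gccctcaacaAAGATGGCgctagcc
Upf3a, ZBTB33 motif, chr8:13785896-13785918, plus strand: gcccgcaagtCTCGCGAGaggac
These motifs lay 225 bp upstream of the start in Dazap2, 14 bp upstream in Oxsr1 and 139 bp upstream in Fiz1. They lay downstream of the start, outside annotated exons, by 185 bp in Mon1b, 382 bp in Ctbp1 and 295 bp in Upf3a.

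The larger peak lists held 40484, 84564 and 81854 peaks in replicates 1, 2 and 3, and the footprint lists 101990, 239483 and 222990 footprints. Read depth is unknown from these files. Of the 7 markers of natural killer cells, 5, 6 and 6 had a promoter peak, with Klrb1c lacking one in every library and Tbx21 in replicate 1. Of 4 markers each, B cells had 3, 4 and 3, T cells 0, 2 and 1, monocytes 1, 1 and 1, and neutrophils none. Of 3 erythroid markers, 0, 1 and 1 had one. On the longer lists of 14 genes, 8, 13 and 12 B cell genes, 1, 9 and 5 T cell genes, 5, 7 and 6 monocyte and macrophage genes and no neutrophil gene had one. Of 25 natural killer receptor and adaptor genes, 16, 17 and 18 had a promoter peak. It was 17, 17 and 21 of 22 cytotoxic effectors and 12, 18 and 16 of 22 natural killer transcription factors. Whether other cell types contributed to the footprints described here was not tested.

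The threshold that the 5% rule set was 12 footprints in replicate 1, 15 in replicate 2 and 14 in replicate 3. It was passed by 374 of 10430 promoters with a peak in replicate 1 (3.59%), 513 of 11947 in replicate 2 (4.29%) and 581 of 11785 in replicate 3 (4.93%). The 152 that passed in all 3 are 1.47% of the promoters open in all 3. Members had a median of 13, 17 and 16.5 footprints, beside 5, 7 and 7 at the other open promoters. The range was 12 to 21, 15 to 25 and 14 to 28. These values chose the members and are given as a description.

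**Figure D1:**
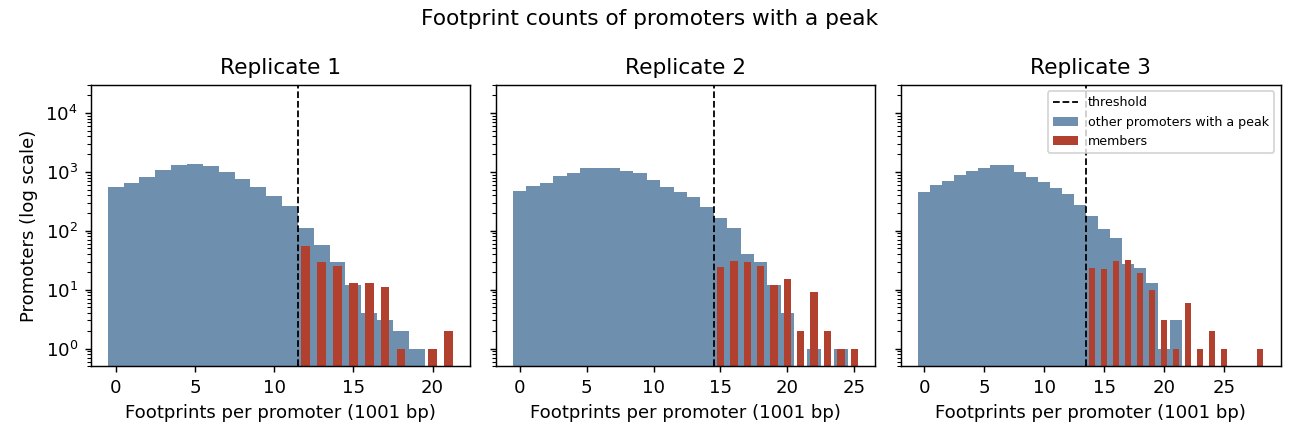
Number of promoters (log scale) by footprints per 1001 bp promoter window, in each of the 3 libraries, with members in red, all other promoters with a peak in blue and the threshold as a dashed line. The thresholds of 12, 15 and 14 cut the upper tail of a single broad distribution, and many promoters past the line in 1 library were not past it in all 3.

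The overlap between libraries is described here by taking promoters past the threshold in 2 libraries and reading the one left out. Of 314 promoters past the threshold in replicates 2 and 3, 152 (48.4%) were past it in replicate 1, where the share of all promoters with a peak was 3.59%. Of 209 chosen in replicates 1 and 3, 72.7% were past it in replicate 2. Of 195 chosen in replicates 1 and 2, 77.9% were past it in replicate 3. Each time the promoters past it in all 3 are the 152 members themselves. The share of all promoters with a peak covers promoters of any peak signal, and the libraries carry 1 donor label. Counts of the 10334 open promoters correlated at Pearson's r of 0.738 between replicates 1 and 2, 0.748 between 1 and 3 and 0.822 between 2 and 3. Within the 152 members r was 0.237, 0.404 and 0.456, but the choice by count narrows the range of their counts, which by itself lowers r. Promoters are not independent replicates, overlapping windows share footprints, and these values carry no test.

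By the mean of its 3 within-library percentiles, Cdca2 on chromosome 14 ranked first. It had 21, 22 and 24 footprints in replicates 1, 2 and 3. Kctd9, which starts 96 bp away on the other strand, had 21, 20 and 22, in a window that overlaps that of Cdca2. Tbc1d17, which encodes an activator of Rab GTPase hydrolysis, had 17, 25 and 22, the highest count of any open promoter in replicate 2. Its neighbour Akt1s1, which encodes an inhibitor of the growth kinase mTOR, starts 88 bp away and had 15, 24 and 22. Sdf4, which encodes a calcium-binding protein of the Golgi, had 17, 22 and 28, the highest count of any open promoter in replicate 3. It faces B3galt6, 223 bp away.

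Promoters without a divergent start were also among the highest. Cic had 16, 23 and 22 footprints, Lnpep 16, 20 and 25, Kdm3a 15, 19 and 20, and Prdm10 16, 18 and 19, and none of these genes had a start on the other strand within 1000 bp. Lnpep encodes a membrane aminopeptidase and Prdm10 a zinc finger protein. The rest of the 12 highest have such a start. Mboat7, which encodes an acyltransferase of phosphatidylinositol, had 17, 19 and 19, Spata5 16, 21 and 18, and the predicted gene Gm17949 16, 20 and 18. In each of these 7 genes replicate 1, which had the fewest footprints in all, gave the lowest count.

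At the other end, Atf2, Atp2b1 and Frat1 sat exactly on the threshold with 12, 15 and 14 footprints each. They encode a transcription factor that binds cyclic AMP response elements, a calcium pump of the plasma membrane and a regulator of Wnt signalling. Just outside, 48 promoters missed by 1 footprint in replicate 1 alone, 22 in replicate 2 alone and 21 in replicate 3 alone. The nearest of these by mean percentile were Rita1, with 15, 14 and 20, and Ell and Zfp319, with 11, 18 and 18 each. At the threshold itself stood 169, 188 and 204 promoters, and 1 footprint below it 263, 255 and 278, so the edge of the set is a cut through a continuum.

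Genes of splicing, translation and RNA unwinding had the largest shares of members among the 30 gene lists, most of which are of basic cell machinery. Of the members, 35 were in at least 1 list and 117 in none, and 16 lists held no member. The background is again the 1.47% of open promoters that were members. Splicing and RNA-binding proteins had 5 members of 72 open promoters (6.94%), which were Hnrnpa1, Srsf6, Lsm4, Hnrnpd and Hnrnpul2. Hnrnpa1, a regulator of splice sites, had 13, 20 and 19 footprints, and the SR protein gene Srsf6 13, 20 and 15. Over the 72 open promoters of that list the median percentile of the count was 74.4, beside 54.0 over all open promoters.

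Translation factors had 4 members of 62 (6.45%), which were Eif2s1, Eif4g2, Eif5 and Eef1b2. Eif2s1, the alpha subunit of the factor that brings initiator tRNA to the ribosome, had 12, 19 and 16 footprints. RNA helicases had 3 of 48 (6.25%), with 18, 17 and 23 at Ddx54, 13, 20 and 18 at Ddx39b and 16, 18 and 15 at Ddx3x. The median percentile of the count was 62.8 over the open translation factors and 62.3 over the open RNA helicases. Among lists with smaller shares it was 62.5 for cell cycle genes, 70.6 for cytosolic ribosomal proteins and 70.2 for chromatin regulators. Proteasome subunits had 58.2 and mitochondrial ribosomal proteins 47.0. The transcription machinery had 3 of 76 (3.95%). Polr2a, the largest subunit of RNA polymerase II, had 20, 17 and 18, Gtf2f1, a subunit of the initiation factor TFIIF, had 16, 19 and 17, and Gtf2a1 had 12, 17 and 16.

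Other housekeeping lists lay nearer to the background share or held no member. There were 0 members among 62 open histone genes, 43 proteasome subunits, 32 tRNA synthetases and 23 cell cycle genes. Small GTPases had 3 of 94 (3.19%: Rab8a, Arl6ip6 and Rab4b) and chromatin regulators 3 of 107 (2.80%: Kdm3a, Ing1 and Ep400). Cytosolic ribosomal proteins had 2 of 75 (2.67%: Rps19 and Rpl10) and membrane trafficking genes 3 of 113 (2.65%: Vps26c, Sec11c and Tmed1). The ubiquitin pathway had 4 of 169 (2.37%), which were Ube2d3, Usp9x, Fbxo5 and Fbxo24. DNA replication and repair had 1 of 64 (Msh3), mitochondrial ribosomal proteins 1 of 73 (Mrpl40) and the respiratory chain 1 of 90 (Ndufs1). Among Zfp zinc finger genes 1 of 289 was a member (Zfp335, 0.346%), and among solute carriers 1 of 170 (Slc35f5, 0.588%). With so few members in a list, a single gene shifts its share by more than 1 percentage point in each list of fewer than 100 open promoters.

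Genes of the natural killer programme gave no member, a count that is near what the background share gives for so few genes. The lists of receptors, cytotoxic effectors, transcription factors and cytokine signalling held 91 genes, of which 65 had a promoter peak in all 3 libraries, and 0 of those 65 were chosen, where the background share is 1.47%. Their median percentile of the count was 38.9. By list the median percentile was 24.5 for the 16 open receptor genes, 44.2 for 17 cytotoxic effectors, 60.9 for 12 transcription factors and 37.0 for 20 cytokine signalling genes. Past the threshold in at least 1 library were Nfil3, Runx1 and Stat3.

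Individual killer cell genes show the distance. Nfil3, a factor needed for natural killer cell development, came nearest with 10, 16 and 16 footprints. Stat3, a transducer of cytokine signals, had 10, 12 and 16, and Runx1, a regulator of lymphocyte genes, had 12, 10 and 8. Stx11, a syntaxin of granule release, had 9, 10 and 12. The receptor gene Ncr1 had 3, 3 and 4, the perforin gene Prf1 4, 6 and 5, the granzyme gene Gzmb 7, 5 and 5, and the T-box factor gene Eomes 6, 2 and 9. The open receptor and cytotoxic promoters also had low CpG ratios, with medians of 0.199 and 0.219. Immediate early genes had 0 members of 15 open promoters, though Jund had 16, 16 and 12 footprints, past the threshold in replicates 1 and 2.

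Members were rich in CpG almost without exception. The CpG ratio, which is the number of CpG pairs over the number expected from the C and G content, had a median of 0.824 over the members, with quartiles of 0.750 and 0.931. The median was 0.749 over the other open promoters and 0.552 over all protein-coding promoters. A ratio above 0.6 was found in 147 members (96.7%), 78.9% of the other open promoters and 45.9% of all. The 5 members at or below 0.6 were Slc35f5 at 0.592, Ccdc28a at 0.585, Sec11c at 0.578, Tmed1 at 0.590 and Mgat1 at 0.596. The highest ratio was 1.14, at Srsf6. GC content had a median of 63.7% in members and 59.1% in the other open promoters.

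The CpG difference was smaller beside promoters with peaks like those of the members. With the other open promoters weighted to the members' peak-covered length the median ratio was 0.798, and weighted to their peak signal it was 0.794. Across the 10334 open promoters the footprint count had a Spearman's rho of 0.368, 0.397 and 0.371 with the CpG ratio in replicates 1, 2 and 3. With the signal of the strongest peak rho was 0.671, 0.608 and 0.631, and with the peak-covered length 0.381, 0.328 and 0.332. All of these come from the same cuts except the CpG ratio, and the part that signal has in the CpG difference was not tested.

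**Figure D2:**
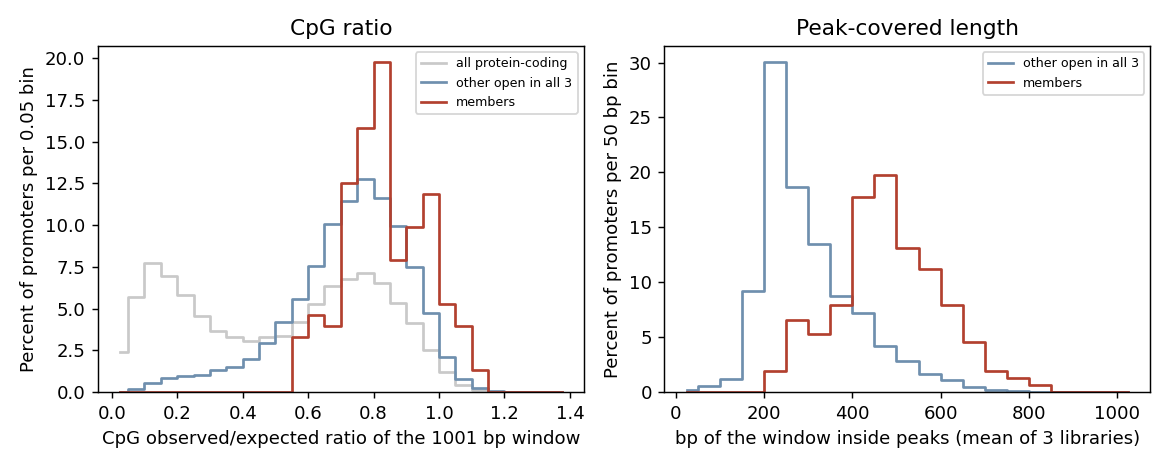
Left, percent of promoters in bins of 0.05 of the CpG ratio of the window, for members, other open promoters and all protein-coding promoters. Right, percent in bins of 50 bp of window inside peaks (mean of 3 libraries); members centre on a CpG ratio of 0.824 and on 475 bp of peak, other open promoters on 0.749 and 268 bp.

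Start sites facing the other way were common at members. A start of another protein-coding gene on the opposite strand lay within 1000 bp in 67 members (44.1%), 20% of the other open promoters and 10.8% of all. Within 200 bp the shares were 27.6% and 11.2% for members and the other open promoters. Genes that share a promoter enter in pairs, and 48 members overlapped another member's window, in 23 loci, so the 152 members are 127 separate loci. With 1 gene kept per overlapping window the share was 33.9% of 127 members and 11.5% of 9082 other open promoters. Weighted to the members' peak signal, the other open promoters had 27.9%. Members with and without such a start had similar counts, with medians of 13, 17 and 17 against 13, 17 and 16. Their CpG ratios were 0.825 and 0.822.

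Known pairs illustrate this layout. Nfya, which encodes a subunit of the CCAAT-binding factor NF-Y, had 17, 20 and 17 footprints, with Oard1 starting 108 bp away. Gtf2f1 and Gm17949 start 181 bp apart. Slx4ip, Mkks and the gene model AL731706.1 lie within 1 locus, where their windows overlap. Chromosome 7 held 20 members, 13.2% of them, against 7.48% of the other open promoters, and chromosome 17 held 14 (9.21% against 5.11%). The X chromosome held Usp9x, Ddx3x and Rpl10.

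The accessible stretch was longer at members than at the other open promoters. Peaks covered a median of 512, 460 and 454 bp of the member windows in replicates 1, 2 and 3, beside 280, 240 and 240 bp. The signal of the strongest peak had a median percentile among all peaks of the library of 97.3, 98.4 and 98.4 in members and 84.5, 92.2 and 91.8 in the others. All footprints of the window per 100 bp of peak numbered 2.65, 3.73 and 3.71 in members and 1.66, 2.55 and 2.42 in the others. With the others weighted to the members' signal this value was 2.32, 3.39 and 3.24. Footprints outside peaks are in it, so it is not a density within peaks. Footprints covered 18.7%, 27.9% and 27.0% of the member windows and 6.97%, 11.6% and 11.0% of the others. All of these follow from the reads that chose the members and are no test of the set.

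Not every footprint counted lay in a peak. Of the members' footprints 63.1% ± 11.2 (SD, n = 3) were wholly inside peaks of the larger list, and 70.2% ± 9.61 of those at the other open promoters. When the rule counted only footprints inside peaks, 67 promoters were chosen, of which 37 were among the 152. When it ranked all footprints of the window per bp of peak in place of the count, 40 were chosen, of which 12 were among the 152. The set therefore holds promoters with many footprints, and few of them were also the highest by window footprints per base of peak.

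Footprints were spread over the whole window at members and gathered at the start site elsewhere. Within 200 bp of the start lay 53.6% ± 1.60 (SD, n = 3) of the members' footprints, against 72.0% ± 1.17 at the other open promoters. The 100 bp just upstream held 15.2% ± 0.985 of footprints at members and 25.3% ± 2.05 at the others. More than 300 bp upstream the shares were 13.5% ± 0.526 and 6.13% ± 0.402, and at least 300 bp downstream 11.1% ± 1.42 and 7.36% ± 0.511. These shares come from the same footprints whose number chose the members, so they are a description. Each of these differences had the same direction in all 3 libraries, which a choice by count in all 3 makes likely. An exact sign-flip test of 3 libraries cannot go below p = 0.25 and is no support here. Upstream and downstream were filled alike, with 53.9% ± 0.999 of footprints upstream at members and 55.5% ± 0.880 at the others.

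Per promoter, members had more footprints in every part of the window, as the choice by count makes likely. In the 100 bp upstream they had 2.42 ± 0.177 (SD, n = 3) and the others 1.66 ± 0.189. More than 300 bp upstream they had 2.18 ± 0.346 and the others 0.409 ± 0.0995, which is 5.32 times as many. Divergent members did not differ in layout from single ones by more than the spread between libraries, with 53.4% ± 1.55 and 53.8% ± 2.22 of footprints within 200 bp. Weighted to the members' peak-covered length, the deficit in the 100 bp upstream shrank from -10.2 to -3.94 percentage points. Weighted to their peak signal it was -7.29 points.

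**Figure D3:**
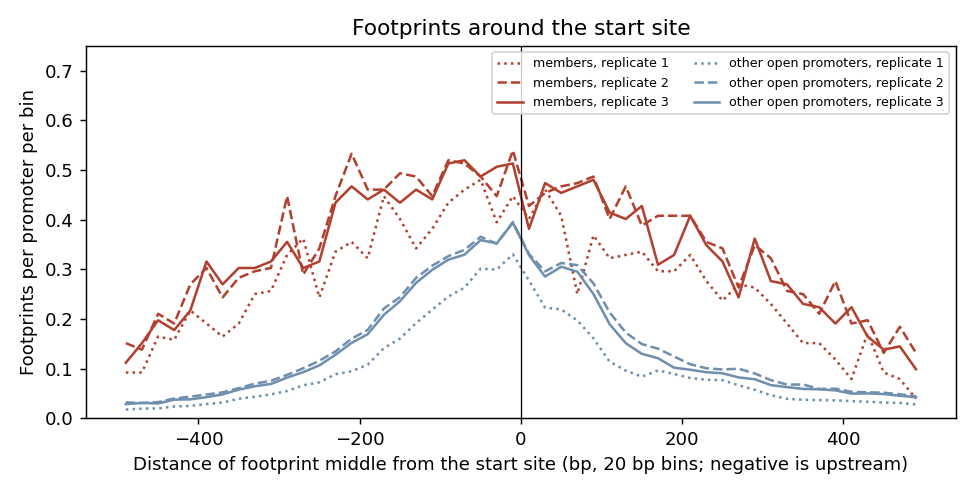
Footprints per promoter in 20 bp bins of distance from the start site (bp, negative is upstream), for members (red) and other open promoters (blue), 1 line per library. The other open promoters peak just upstream of the start and fall off on both sides, while members stay high to about 300 bp on either side.

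Footprints at members were found again more often in the other libraries. Of the distinct footprints of members, 75.7%, 55.1% and 57.2% in replicates 1, 2 and 3 overlapped a footprint of both other libraries. At the other open promoters the shares were 66.6%, 42.8% and 45.3%. Members were chosen by high counts in all 3 libraries, which makes larger shares likely, so these values are a description. A denser window also gives more chance overlap. The part of either in this was not tested. The median width was 11, 13 and 14 bp at members and 10, 12 and 12 bp at the others.

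The GC box, which SP and KLF factors bind, was the most frequent motif in member footprints. A motif counted where at least 50% of its letters lay in the footprint, on either strand. A footprint in overlapping windows counted once for each window, here and in the position shares above. The 2082, 2679 and 2561 member footprints of replicates 1, 2 and 3 were thus 1744, 2245 and 2149 distinct ones. GGGCGG was in 17.0% ± 0.470 (SD, n = 3) of member footprints, in 15.7% ± 0.104 of footprints at the other open promoters, and in 4.78% ± 0.566 of control windows at members. A control window had the width of a footprint and was the nearest one clear of footprints inside the peaks of the same promoter. The footprints compared include those outside peaks, so footprints and control windows do not cover wholly like regions. The GC box lay in a footprint of each library at 127 members (83.6%). Counts over all 3 libraries, here and below, were not made for the other open promoters. Per library it was in a footprint at 89.9% ± 4.38 of members and 58.3% ± 7.42 of the other open promoters. More footprints per member make a larger share likely. Dazap2 had the most footprints with a GC box, with 8, 9 and 9. Of all 21911 promoter windows 60.4% hold the letters GGGCGG, of the other open promoters 87.5%, and of the members 98.0%.

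NRF1, a factor that activates genes of mitochondria and the cell cycle, had a motif that was rare in the control windows of member promoters. It was in 1.42% ± 0.144 of member footprints and in 0.029% ± 0.0256 of control windows, with 1.20% ± 0.158 at the other open promoters. The motif was in the window of 20.4% of members, 8.32% of the other open promoters and 4.44% of all promoters. Weighted to the members' CpG ratio the other open promoters had 10.9%, and weighted to their signal 11.8%. At 29 members (19.1%) it lay in a footprint of each library, and Ctbp1, a corepressor gene, had the most with 2, 3 and 2. Per library 19.5% ± 0.380 of members and 7.23% ± 0.480 of the other open promoters had it in a footprint.

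The cyclic AMP response element and the ETS motif also lay in footprints more often than beside them. The ETS motif CCGGAAG was in 2.05% ± 0.0267 of member footprints and 0.703% ± 0.235 of control windows, but in 2.68% ± 0.177 of footprints at the other open promoters. It was footprinted in each library at 29 members, most often at Vps26c, a gene of endosomal sorting, with 2, 3 and 2. Per library it was footprinted at 28.1% ± 4.38 of members and 15.6% ± 3.11 of the other open promoters. The response element TGACGTCA was in 0.501% ± 0.0603 of member footprints, 0.0993% ± 0.0391 of control windows and 0.676% ± 0.0584 of footprints at the others. Oxsr1, a stress kinase gene, had 2 in each library. In promoter windows the ETS motif was in 44.1% of members, 33.2% of the other open and 19.2% of all promoters, and the response element in 8.55%, 5.19% and 3.32%.

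The CCAAT box, bound by NF-Y, went the other way in control windows. The letters CCAAT were in 3.10% ± 0.335 of member footprints and 4.97% ± 0.213 of the control windows. At the other open promoters they were in 2.47% ± 0.321 of footprints. They were footprinted in each library at 38 members (25%), with 2, 4 and 3 at Cdk2ap2. Per library they were footprinted at 35.5% ± 4.56 of members and 13.6% ± 3.46 of the other open promoters. In promoter windows CCAAT was in 71.1% of members, 66.7% of the other open and 70.7% of all promoters. Motif-bearing footprints lay at a median of 41.3 bp upstream of the start for the GC box and 64.7 bp upstream for CCAAT in members, and 12.3 bp downstream for ETS.

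YY1, a zinc finger factor, and ZBTB33, also called Kaiso, had larger shares of member windows than of other open windows. The YY1 letters AANATGGC were in 38.2% of member windows, 20.2% of the other open and 16.9% of all promoters, with 24.4% after weighting to the members' signal and 22.5% after weighting to their CpG ratio. In footprints they were in 1.36% ± 0.0945 at members and 0.771% ± 0.0219 at the others, but control windows at members had 1.09% ± 0.632, so footprints and their surroundings differed by less than the spread. Eif4g2 had the most, with 2, 3 and 3. The ZBTB33 letters CTCGCGAG were in 11.2% of member windows, 3.57% of the other open and 2.06% of all promoters. They were in 0.471% ± 0.0879 of member footprints and 0.151% ± 0.042 of control windows, most often at Upf3a, a gene of nonsense-mediated decay, with 1, 3 and 2. With 1 gene per overlapping window the shares of members were 20.5% for NRF1, 36.2% for YY1 and 11.8% for ZBTB33, against 8.06%, 19.8% and 3.46% of the other open promoters.

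The other motifs went either way in promoter windows. The E-box letters CACGTG were in 32.2% of members and 22.3% of the other open promoters, the E2F letters GCGGGAA in 30.3% and 23.8%, and the CACCC letters CCNCACCC in 51.3% and 45.9%, of which all promoters had 17.0%, 15.3% and 40.4%. The TATA box letters TATAAA were in 9.87% of members, 20% of the other open and 32.3% of all promoters, and the GATA letters AGATAA in 11.2%, 21.2% and 30.6%. In footprints TATAAA went the other way, with 0.341% ± 0.00886 (SD, n = 3) at members and 0.211% ± 0.0196 at the others, higher in all 3 libraries. These were only 7, 9 and 9 member footprints, and control windows at members had 0.240% ± 0.0867. Of these footprints 60.8% ± 9.16 lay downstream of the start. TATAAA was in a footprint of each library at 6 members, with 2 in each at Atf4, the gene of a stress-response factor. Of factors that direct natural killer cells, the RUNX letters TGNGGTT were in 35.5%, 38.3% and 41.3% of windows. With 1 gene per overlapping window they were in 39.4% of members and 38.4% of the other open promoters. Weighted to the members' peak-covered length, CpG ratio and signal, the other open promoters had 33.7%, 34.9% and 37.0%, so the direction in windows varied. The RUNX letters were in 0.410% ± 0.0886 of member footprints against 0.637% ± 0.0785 at the others. Atxn2l had 1, 2 and 1 such footprints. The T-box letters AGGTGTGA were in 1.32% of member windows, 2.58% of the other open and 3.94% of all promoters. They were in 0 of 2082, 2679 and 2561 member footprints and in 0 control windows at members. At the other open promoters they were in only 9 of 53058, 7 of 76505 and 11 of 72334 footprints. The 0 at members is near what so low a share gives.

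**Figure D4:**
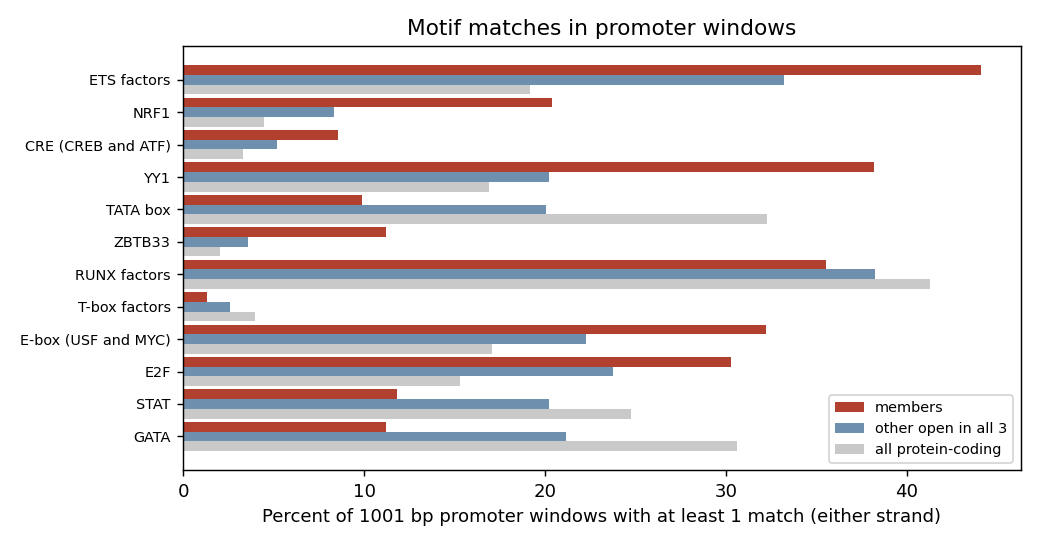
Percent of 1001 bp promoter windows that hold at least 1 match to each of 12 motifs on either strand, for members, other open promoters and all protein-coding promoters. YY1, NRF1 and ETS letters were more frequent in members than in the other open promoters (38.2% against 20.2% for YY1), and TATA, STAT and GATA letters are less frequent there.

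Most members combined few of the common motifs. Of the GC box, ETS, NRF1, CCAAT and response element motifs, 66 members had 1 kind in footprints of each library, 60 had 2, 11 had 3, 3 had 4 and 12 had none. The 3 with 4 kinds are the single locus of Slx4ip, Mkks and AL731706.1. Kinds were not counted at the other open promoters. Per library 97.6% ± 2.01 of members and 70.4% ± 8.23 of the other open promoters had at least 1 of the 5 motifs in a footprint. At least 1 of the 5 motifs was in 23.1% ± 0.142 (SD, n = 3) of member footprints, 21.6% ± 0.398 of footprints at the other open promoters and 10.5% ± 0.696 of control windows. The difference from the other open promoters was 1.47 percentage points and turned to -2.61 points when those were weighted to the members' peak signal; a larger share of footprints held them at promoters of like signal. More than 75% of member footprints held none of them.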

How the data were processed

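The 3 DNase-seq libraries form 1 group. Per the labels the assembly is mm10, while read alignment and the calling of peaks and footprints are not described in the sources used here. The authors deposited peaks per library with a signal in a unit that is not stated, so signal was used only as ranks within a library. The deposited footprint lists carry a constant of 0.01, read as the p-value threshold of the call, which was not used as a measurement. Start sites came from GENCODE M21 (21938 protein-coding records, 21911 symbols) and sequence from RefSeq's GRCm38.

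Overlaps, motif matches and CpG ratios were computed in Python 3.11.15 with numpy 2.4.6, pandas 2.3.3 and pysam 0.24.0, and the counting was tested on simulated data. Means are over 3 libraries, with the SD. For weighted values the other open promoters were weighted to the members' distribution in bins of 50 bp of peak, 0.05 of CpG ratio or 2 points of signal percentile. Named genes are the 12 highest and 3 lowest members by mean percentile of the count, the 3 non-members nearest below the threshold where they fail (by 1 footprint in 1 library, then by mean percentile), up to 3 members of each list, members of natural killer, cytokine and marker lists, and the member with most of a motif; other genes named were chosen after their values were seen. The members and lists were chosen with earlier results of these data known. Alternatives varied the window, the threshold, the peaks, the start sites, the counting and the libraries.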

Additional observations from a re-analysis of the deposited data

How the results depend on the processing

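The 152 members became 75 with 250 bp on each side, 53 at the top 2.5%, 384 at the top 10%, 278 with ties at the threshold kept, 67 with footprints inside peaks only, 40 by footprints per bp of peak, and 195 to 314 when 1 library was left out (314 without replicate 1). In that order the members with a divergent start (44.1%) became 53.3%, 54.7%, 40.9%, 42.1%, 37.3%, 42.5% and 38.8% to 42.6%. They were 42.3% with 1000 bp, 39.9% with any annotated start and 33.9% with 1 gene per window. Which promoters were chosen also changed with the window. Of the 75 with 250 bp, 40 were among the 152, and of the 220 with 1000 bp, 96 were. With any annotated start 126 of 163 were. The median CpG ratio was 0.876 with 250 bp, 0.768 with 1000 bp, 0.792 inside peaks, 0.793 per bp, 0.822 with the smaller peak lists and with 1 gene per window, and 0.819 to 0.831 without 1 library. The share of footprints in the 100 bp upstream (15.2%) was 21.4% with 250 bp, 10.9% with 1000 bp, 14.1% at the top 2.5% and 18% per bp. The share with any of the 5 motifs (23.1%) was 21.6% with 250 bp, 24.6% and 22.9% at the top 2.5% and 10%, 23.0% with the smaller lists, 20.04% inside peaks, 22.6% with any start, 23.7% with 1 gene per window, 21.0% per bp, 18.4% with the whole motif inside, and 21.6% to 23.3% without 1 library. Differences from the other open promoters under weighting on peak length, CpG ratio and signal were 21.3, 21.7 and 16.2 points for divergent starts (24.1 unweighted) and 3.57, 0.527 and -2.61 points for the motifs (1.47 unweighted). For the CpG ratio (0.0749) they were 0.0266 on length and 0.0302 on signal, and for the 100 bp upstream (-10.2 points) -3.94 and -7.29. The causes were not tested. Weighting on signal, and natural killer lists under any annotated start (0 members), were chosen after seeing the data. No paired analysis was possible because there is 1 group. Read depth is unknown here, and its part in the counts was not tested; replicate 1 had the fewest peaks and footprints.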
